A study of Homo sapiens with 6 samples.

Results

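The genes described here are 10 components and targets of the Notch pathway, the receptors NOTCH1, NOTCH2 and NOTCH3, the ligands DLL1, DLL3 and JAG1, the glycosyltransferase LFNG, and the transcriptional repressors HES1, HES4 and HEY1. All probes that the platform annotation assigns to one of these symbols were taken, which gave 14 of the 24526 probes on the array. Of the 14 probes, 11 were tested and 3 were too dim to test, and each of the 10 genes, among 16922 named genes on the array, kept at least 1 tested probe. The cells were HES3, an established line of human embryonic stem cells, not to be confused with the gene HES3. They had been grown on irradiated human feeder cells, freed of most feeders by straining, and plated on fibronectin. One group received Activin A and BMP4 for 3 days and the other Activin A for 3 days, each factor at 50 ng/ml per the labels, with 3 arrays in each group. The replicates are biological according to the design text. Because the treatment label lists Activin A and BMP4 for all samples alike, the groups were taken from the sample titles. All 6 samples came from 1 cell line.

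Notch signalling passes between touching cells. A Delta or Jagged ligand on one cell binds a Notch receptor on its neighbour, the receptor is cut by ADAM and gamma-secretase proteases, and its freed intracellular domain joins the DNA-binding protein RBPJ to switch on genes such as HES1 and HEY1, which encode basic helix-loop-helix repressors. Fringe enzymes such as LFNG add sugars to the receptor and so alter which ligands it answers to. Activin A acts through SMAD proteins and drives pluripotent cells towards endoderm, and BMP4 acts through a different set of SMAD proteins, which can also bind near some HES and HEY genes.

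Values are background-corrected, quantile-normalized log2 intensities of single probes, so levels are compared between treatments for one probe and not between probes. Probes were called above background on an array at a detection p under 0.01, and 9348 to 10460 probes passed on an array. Correlations across tested probes were at least 0.985 between arrays of one treatment and 0.926 to 0.945 between treatments. Each of the 3 chips held 1 treatment, so chip and treatment cannot be told apart. In whole cultures, fewer cells of a type and less RNA per cell cannot be told apart either. Of 9 definitive endoderm markers 7 were tested, SOX17, CER1 and EOMES among those above background on all 6 arrays, while GATA6 and FOXA1 were too dim to test. The summed linear level of the 7 was 20192 to 21565 with BMP4 and 7382 to 7833 without it. CER1 and EOMES, at means of 12.88 and 12.56 with BMP4, weigh heavily in this linear sum. Of the 7 markers, 5 were called higher at an adjusted p under 0.05, while FOXA2 and HHEX did not pass. The 7 tested pluripotency markers summed to 7226 to 8330 and 10556 to 11067. There 5 were called lower, LIN28A was called higher by a log2 difference of 0.53, and ZFP42 did not pass. LIN28A, at a mean of 11.80 with BMP4, weighs heavily in that sum, while SOX2 differed by -3.27 on the log2 scale. Of all tested genes, 17.6% were called higher and 18.1% lower.

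Markers of fibroblasts, which feeder layers commonly consist of, moved with the treatments. Of 22 listed, 20 were tested, and 17 were lower with BMP4, 1 was higher and 2 did not pass the threshold. The share called was 90%, against 35.8% of all tested genes. Their summed levels follow. The summed linear level of the 20 markers was 39587 to 40160 on the Activin A + BMP4 arrays, against 89352 to 103785 on the Activin A arrays (exact permutation test, two-sided, p = 0.1, the smallest that 3 arrays against 3 allow). LOX, THY1, PRRX1 and DCN had the largest falls, by log2 differences of -2.20, -2.17, -2.16 and -2.07. FBLN1 was the marker called higher, by a log2 difference of 0.46, and PDGFRA and TNC did not pass. POSTN was not above background on any array. The part of feeder cells in the Notch gene differences below was not tested.

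With BMP4, the repressor genes HEY1 and HES1, the fringe gene LFNG and the ligand gene JAG1 were lower, the repressor gene HES4 and the ligand genes DLL1 and DLL3 were higher, and the 3 receptor genes did not pass the threshold. The fall of HEY1 was therefore matched in direction by HES1, LFNG and JAG1 and not by HES4, DLL1 or DLL3. Tests used limma with Benjamini-Hochberg adjustment over 10116 tested probes at a threshold of 0.05. Of the 11 tested Notch probes 7 were called, against 35.4% of all tested probes. Of these 3 were higher and 4 lower, where 17.5% of all tested probes were called higher and 17.9% lower. By gene, 7 of 10 were called, against 35.8% of all 8186 tested genes. HEY1 and HES1 passed the detection filter through the Activin A arrays alone, so the count is a description. The median log2 difference of the 10 genes was 0.09, and that of all tested genes was 0.00193. HEY1 and HES1 lie below the median at their bounds too, so using the bounds cannot change it. Their median absolute log2 difference was 0.58, and 0.27 over all tested genes. For 8 of the 11 tested probes no array of one treatment lay within the range of the other, against 49.4% of all tested probes.

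**Figure D1:**
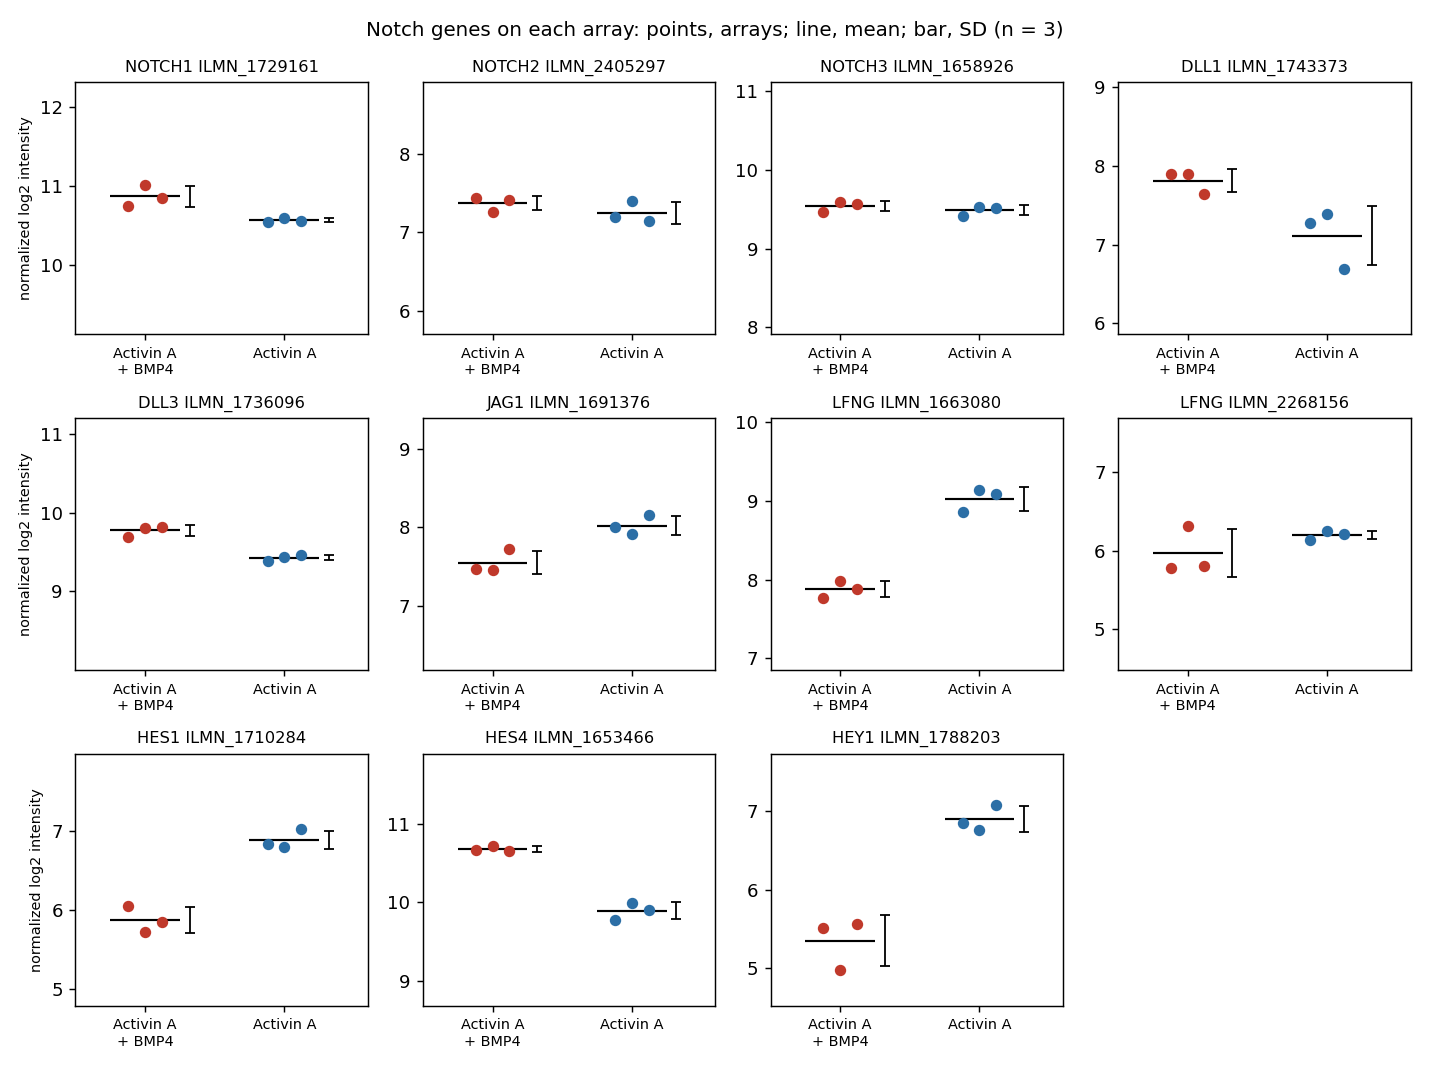
Normalized log2 intensity (vertical axis, a window of equal height in every panel) of the 11 tested Notch probes on each array, with Activin A + BMP4 left of Activin A. Points are arrays, lines means and bars SD (n = 3); HEY1, HES1, LFNG ILMN_1663080 and JAG1 lie lower with BMP4, HES4, DLL1 and DLL3 higher, and the panels of NOTCH2, NOTCH3 and LFNG ILMN_2268156 overlap.

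HEY1 encodes a repressor that acts downstream of Notch and also answers to BMP in several cell types. Its brighter probe, ILMN_1788203, read 5.51, 4.98 and 5.56 on the Activin A + BMP4 arrays, against 6.85, 6.76 and 7.08 on the Activin A arrays. None of the Activin A + BMP4 arrays reached the lowest Activin A array. The deposited signals, before normalization, were 27.3, 7.4 and 35.3 with BMP4 and 110.3, 84.5 and 116.1 without it. The probe was above background on all 3 Activin A arrays and on 0 of 3 with BMP4, where detection p was 0.0346, 0.262 and 0.0361. Mean levels were 5.35 ± 0.32 and 6.90 ± 0.17 (SD, n = 3 each). HEY1 was at least 1.79-fold lower with BMP4, or at least 1.40-fold lower after another background correction, normexp with an offset of 50. The limma adjusted p of 2.35e-04 belongs to the fit, which used the values below background, and not to the bound. The bound sets the Activin A mean against the higher of the probe's own value and the dimmest detected value of each Activin A + BMP4 array. A second HEY1 probe, ILMN_2407308, annotated to another transcript of the gene, was not above background on any array. It read 5.33, 5.02 and 5.41 with BMP4, against 5.48, 5.20 and 5.70 without it, and was not tested. The fall of HEY1 thus rests on 1 probe.

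HES1, the best known direct target of Notch in many tissues, was lower as well. Its probe ILMN_1710284 read 6.05, 5.73 and 5.85 on the Activin A + BMP4 arrays, against 6.84, 6.81 and 7.03 on the Activin A arrays, with no overlap. Deposited signals were 47.6, 34.2 and 49.1 with BMP4 and 109.9, 88.9 and 110.8 without it. Detection p lay just above the threshold with BMP4, at 0.0135, 0.0286 and 0.0120, and was 0 on every Activin A array. HES1 was at least 1.79-fold lower with BMP4, and at least 1.40-fold lower under normexp, from means of 5.88 ± 0.17 and 6.89 ± 0.12 (SD, n = 3 each). Its limma adjusted p of 3.68e-04 again belongs to the fit and not to the bound. At a detection p under 0.05, a threshold chosen after these values were seen, HES1 was above background on 3 of 3 Activin A + BMP4 arrays and HEY1 on 2 of 3. At that threshold the fitted log2 difference of HES1 was -1.02 (limma adjusted p = 7.62e-04). HEY1 was still not above background on Activin A + BMP4 replicate 2, so its fitted value is not a measured difference (limma adjusted p of the fit = 4.57e-04).

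HES4, a repressor of the same family that has no counterpart in the mouse genome, moved the other way. Its probe ILMN_1653466 read 10.66, 10.72 and 10.65 on the Activin A + BMP4 arrays, against 9.78, 9.998 and 9.90 on the Activin A arrays. All 3 arrays with BMP4 were above all 3 without it. HES4 was 1.72-fold higher (log2 difference 0.78 ± 0.10 SE, 95% interval 0.55 to 1.02, limma adjusted p = 5.56e-04). Of the 10116 tested probes, 93.5% had a lower difference than HES4. HEY1 and HES1 have only bounds, so their places in this order are not determined.

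The promoters of HES1 and HES4 are shown because the genes moved in opposite directions while both windows hold TGGGAA, the core of the sequence that RBPJ binds. Each window runs from 250 bases before to 50 after the gene's start in RefSeq (GRCh38.p14), 5′ to 3′ on the gene's strand. Capitals mark TGGGAA, searched on both strands.
HES1, chr3:194135898-194136197, plus strand: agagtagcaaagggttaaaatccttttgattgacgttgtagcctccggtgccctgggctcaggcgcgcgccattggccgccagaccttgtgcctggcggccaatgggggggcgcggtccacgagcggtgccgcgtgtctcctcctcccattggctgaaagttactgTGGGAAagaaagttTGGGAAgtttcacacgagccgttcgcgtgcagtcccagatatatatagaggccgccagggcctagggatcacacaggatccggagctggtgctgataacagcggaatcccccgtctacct
HES4, chr1:1000048-1000347, minus strand: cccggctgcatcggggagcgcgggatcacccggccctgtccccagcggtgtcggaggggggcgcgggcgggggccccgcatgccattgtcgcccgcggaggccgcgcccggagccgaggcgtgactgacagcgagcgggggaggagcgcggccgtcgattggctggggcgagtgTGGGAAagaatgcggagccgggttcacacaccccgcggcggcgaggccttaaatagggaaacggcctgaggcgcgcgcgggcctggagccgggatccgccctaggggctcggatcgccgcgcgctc
HES1 holds 2 copies, which begin 84 and 70 bases before the start, and HES4 holds 1, which begins 76 bases before it. The longest run of letters the windows share is TGTGGGAAAGAA, 12 bases that include the core, and it begins 86 bases before the start in HES1 and 78 in HES4. Among 35116 RefSeq windows of the same length, 24.0% hold TGGGAA at least once, 3.80% hold it at least 2 times, and 8 hold the 12-base run, which was looked up after it had been seen. Windows were found for 7 of the 10 genes, 8 windows in all since LFNG has 2 starts. None was found for HEY1, DLL1 or DLL3, so their promoters were not searched. Both LFNG windows hold TGGGAA once, on the opposite strand 5 bases before one start and on the gene's strand 248 bases before the other, and the windows of NOTCH1, NOTCH2, NOTCH3 and JAG1 hold no copy. GGCGCC, a sequence bound by BMP-activated SMAD proteins, is in 19.2% of all windows, and among these 8 it is in that of NOTCH1 alone. A match is a string of letters and not a measured binding site.

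LFNG, the lunatic fringe gene, is known for its pulsing expression during the formation of somites in vertebrate embryos. Its brightest probe, ILMN_1663080, read 7.77, 7.98 and 7.88 on the Activin A + BMP4 arrays, against 8.86, 9.14 and 9.09 on the Activin A arrays. Every array with BMP4 was below every array without it. LFNG was 2.22-fold lower by this probe (log2 difference -1.15 ± 0.12 SE, 95% interval -1.42 to -0.88, limma adjusted p = 1.48e-04). The other probes of the gene did not show this. ILMN_2268156, assigned to another transcript, read 5.79, 6.32 and 5.80 with BMP4, against 6.14, 6.24 and 6.22 without it, and its groups overlapped. Its log2 difference was -0.23 (95% interval -0.58 to 0.12, limma adjusted p = 0.281). It was above background on 1 of 3 Activin A + BMP4 arrays and 3 of 3 Activin A arrays, and without Activin A + BMP4 replicate 2, the highest array, it passed the threshold (log2 difference -0.41, limma adjusted p = 0.0349). ILMN_2360401 was not above background on any array.

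Among the ligand genes, JAG1 was lower and DLL1 and DLL3 were higher. JAG1, a Jagged ligand, was 1.38-fold lower with BMP4 and read 7.48, 7.46 and 7.72 on the Activin A + BMP4 arrays, against 7.9998, 7.91 and 8.16 on the Activin A arrays. The groups did not overlap, and replicate 3 was the highest array in each. The log2 difference was -0.47 ± 0.12 SE (limma adjusted p = 0.0163). The call was lost without Activin A + BMP4 replicate 1 or 2 or without Activin A replicate 3 (limma adjusted p = 0.0523, 0.0619 and 0.0569), with differences of -0.43, -0.42 and -0.40.

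DLL1, a Delta ligand of the primitive streak and early mesoderm in the mouse, was 1.62-fold higher with BMP4. It read 7.89, 7.90 and 7.64 on the Activin A + BMP4 arrays, against 7.27, 7.39 and 6.69 on the Activin A arrays. Activin A replicate 3 was well below the other two. The log2 difference was 0.70 ± 0.19 SE (limma adjusted p = 0.0198), and 0.48 without that array (limma adjusted p = 0.0314). The call was lost without Activin A + BMP4 replicate 1 or 2 (limma adjusted p = 0.0597 and 0.0636).

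DLL3, a divergent Delta family member that does not activate Notch on neighbouring cells, was 1.27-fold higher by its brighter probe. ILMN_1736096 read 9.69, 9.81 and 9.82 on the Activin A + BMP4 arrays, against 9.39, 9.44 and 9.46 on the Activin A arrays. The arrays of each treatment lay close together and the groups did not overlap. The log2 difference was 0.35 ± 0.10 SE (limma adjusted p = 0.0241). This call was lost when any array other than Activin A + BMP4 replicate 1 was left out (limma adjusted p = 0.0532 to 0.0769), under median scaling, with the authors' processed values and with no filter on dim probes. The other DLL3 probe, ILMN_1753287, was not above background on any array.

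None of the receptor genes passed the threshold. NOTCH1 read 10.75, 11.01 and 10.85 on the Activin A + BMP4 arrays, against 10.55, 10.60 and 10.56 on the Activin A arrays. The groups did not overlap, but the log2 difference of 0.31 (95% interval 0.06 to 0.55) missed the threshold (limma adjusted p = 0.0532). It passed under normexp (0.0254), among probes above background on all 6 arrays (0.0414) and without Activin A + BMP4 replicate 1 (0.0464), all limma adjusted p-values.

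NOTCH2 read 7.44, 7.27 and 7.41 with BMP4, against 7.19, 7.40 and 7.14 without it. Its groups overlapped, with a log2 difference of 0.13 (95% interval -0.13 to 0.38, limma adjusted p = 0.419). The NOTCH2NL genes are near copies of part of NOTCH2, so what the probe reads is uncertain, and the probe of NOTCH2NLA itself was not above background on any array. NOTCH3 read 9.47, 9.59 and 9.56 with BMP4, against 9.41, 9.53 and 9.52 without it. Its groups overlapped too, with a log2 difference of 0.05 (95% interval -0.17 to 0.28, limma adjusted p = 0.723). As folds, the upper ends of these intervals are 1.31 for NOTCH2 and 1.21 for NOTCH3.

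**Figure D2:**
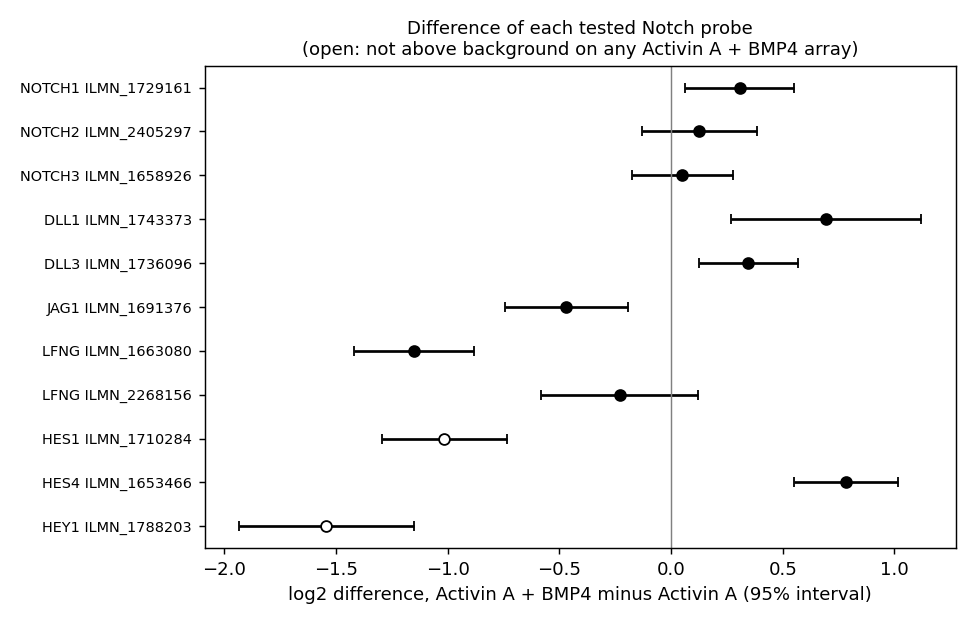
Log2 difference (horizontal axis, Activin A + BMP4 minus Activin A) of each tested Notch probe, with bars for the 95% interval of the moderated fit. Open circles are HES1 and HEY1, detected on none of the arrays with BMP4, whose fitted values are not bounds; intervals of NOTCH2, NOTCH3 and LFNG ILMN_2268156 include 0, and that of NOTCH1 lies above 0 although its adjusted p is 0.0532.

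Other genes of the pathway were taken from 7 lists of 67 genes. Of these, 58 had a probe, 37 were tested, 15 were higher with BMP4 and 6 lower. That is 40.5% higher and 16.2% lower, where 17.6% and 18.1% of all tested genes were called higher and lower. The count of higher genes was 9 without Activin A + BMP4 replicate 2 and 8 without Activin A replicate 1 or 3, and the count of lower genes was 3 without Activin A replicate 3. It was 9 higher with median scaling or the authors' values. The median log2 difference of the 37 genes was 0.22.

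RBPJ, the DNA-binding partner of the cleaved receptor, was 1.82-fold lower by the 1 tested of its 3 probes. It read 7.96, 7.93 and 7.45 on the Activin A + BMP4 arrays, against 8.52, 8.72 and 8.71 on the Activin A arrays, with no overlap (log2 difference -0.87 ± 0.15 SE, limma adjusted p = 0.00286). Among the 14 tested genes of the RBPJ complex and its co-regulators, 5 were higher and 2 lower. That is 50% called, against 35.8% of all tested genes. The higher ones included the Groucho-type co-repressor genes TLE2 and TLE1, through which HES proteins repress, by 0.67 and 0.55 on the log2 scale, and the co-repressor gene CTBP1, by 0.65. CTBP1 had 3 tested probes, of which 1 was called. TLE4, another Groucho-type gene, fell by 0.49 on the log2 scale. The co-activator gene CREBBP was higher too, by 0.32 on the log2 scale (limma adjusted p = 0.0452), as was the Groucho-related gene TLE5, by 0.38 (limma adjusted p = 0.0266). CREBBP had 2 probes, of which 1 was tested. Neither CREBBP nor TLE5 was followed singly through the alternatives described below. The co-activator genes MAML1 and EP300 did not pass, at -0.39 on the log2 scale (limma adjusted p = 0.0570) and 0.08 (limma adjusted p = 0.673).

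Of 11 other HES and HEY genes and Notch targets, 3 were tested. HES6, whose product counteracts Hes1 in the mouse, read 9.72, 9.92 and 9.86 on the Activin A + BMP4 arrays, against 8.63, 8.13 and 8.53 on the Activin A arrays. It was 2.64-fold higher, and all arrays with BMP4 lay above all without it (log2 difference 1.40 ± 0.15 SE, limma adjusted p = 1.60e-04). BHLHE40, a related repressor that answers to many signals besides Notch, read 11.11, 11.08 and 10.97 with BMP4, against 9.64, 9.91 and 10.03 without it. It was 2.29-fold higher (limma adjusted p = 1.74e-04), and again the groups did not overlap. HEY2, a repressor gene of the same family as HEY1, was 1.36-fold lower, at 7.62, 7.27 and 7.501 with BMP4 and 7.95, 7.69 and 8.07 without it (limma adjusted p = 0.0387). The highest HEY2 array with BMP4 lay just below the lowest without it, and the call was lost under 8 of 16 alternatives, with adjusted p up to 0.127. HES2, HES7, HEYL and NRARP, a feedback inhibitor and common readout of Notch activity, were not above background on any array.

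The other ligand genes moved both ways. JAG2, the second Jagged ligand, read 7.77, 7.86 and 8.05 on the Activin A + BMP4 arrays, against 7.11, 7.23 and 7.05 on the Activin A arrays. It was 1.70-fold higher (log2 difference 0.77 ± 0.11 SE, limma adjusted p = 0.00114), so the Jagged genes differed in direction, and both of its tested probes were called higher. DLK1, a Delta-like protein that lacks the usual receptor-binding domain, was 3.79-fold lower, at 8.25, 8.38 and 8.02 with BMP4 and 10.86, 10.09 and 9.48 without it (limma adjusted p = 0.00158). Its Activin A arrays spread widely, yet all lay above those with BMP4. DNER, a neural ligand, was above background on 2 of 3 arrays with BMP4 and 1.66-fold lower (limma adjusted p = 0.0146). DNER missed the threshold when Activin A replicate 2 or 3 was dropped (limma adjusted p up to 0.0512). DLL4, the ligand of blood vessel sprouting, was not above background on any array, nor was the receptor gene NOTCH4.

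Of 7 tested genes for the proteases that cut the receptor, 3 were higher and 0 lower. The share called, 42.9%, was near the 35.8% of all tested genes, and by unadjusted p under 0.05 the count lower was also 0. PSEN2, a catalytic subunit of gamma-secretase, read 8.35, 8.54 and 8.30 on the Activin A + BMP4 arrays, against 7.57, 7.42 and 7.80 on the Activin A arrays, and was 1.74-fold higher (limma adjusted p = 0.00177). FURIN, which trims the receptor on its way to the surface, and APH1A, a gamma-secretase scaffold, were higher by 0.71 and 0.46 on the log2 scale (limma adjusted p = 0.0240 and 0.0290), calls lost in 5 and 7 of 16 alternatives. ADAM17 differed by 0.43 (limma adjusted p = 0.0624), and ADAM10 was too dim to test.

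Among genes for glycosylation of ligands and receptors, 2 of 4 tested were higher, RFNG, the radical fringe gene, by 0.36 and POGLUT1, a glucosyltransferase acting on Notch, by 0.32 on the log2 scale (limma adjusted p = 0.0313 and 0.0343). These calls were lost in 8 and 11 of 16 alternatives, the replicate block among them (0 of 4 called). RFNG thus differed in direction from LFNG, while MFNG, the third fringe gene, was not above background on any array. Of 6 tested genes for ligand endocytosis and Notch turnover, 2 were higher and 1 lower. In this list and in the glycosylation list 50% of the tested genes were called, against 35.8% of all tested genes. DTX3, of the Deltex family, was higher by 0.61 (limma adjusted p = 0.0113), and it was above background on 1 of 3 Activin A arrays. FBXW7, which marks the cleaved receptor for breakdown, was higher by 0.33 (limma adjusted p = 0.0340), by 1 of its 2 tested probes. DTX2 fell by 0.34 on the log2 scale (limma adjusted p = 0.0268). The calls of FBXW7 and DTX2 were lost in 10 and 7 of 16 alternatives, the replicate block among them for both.

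**Figure D3:**
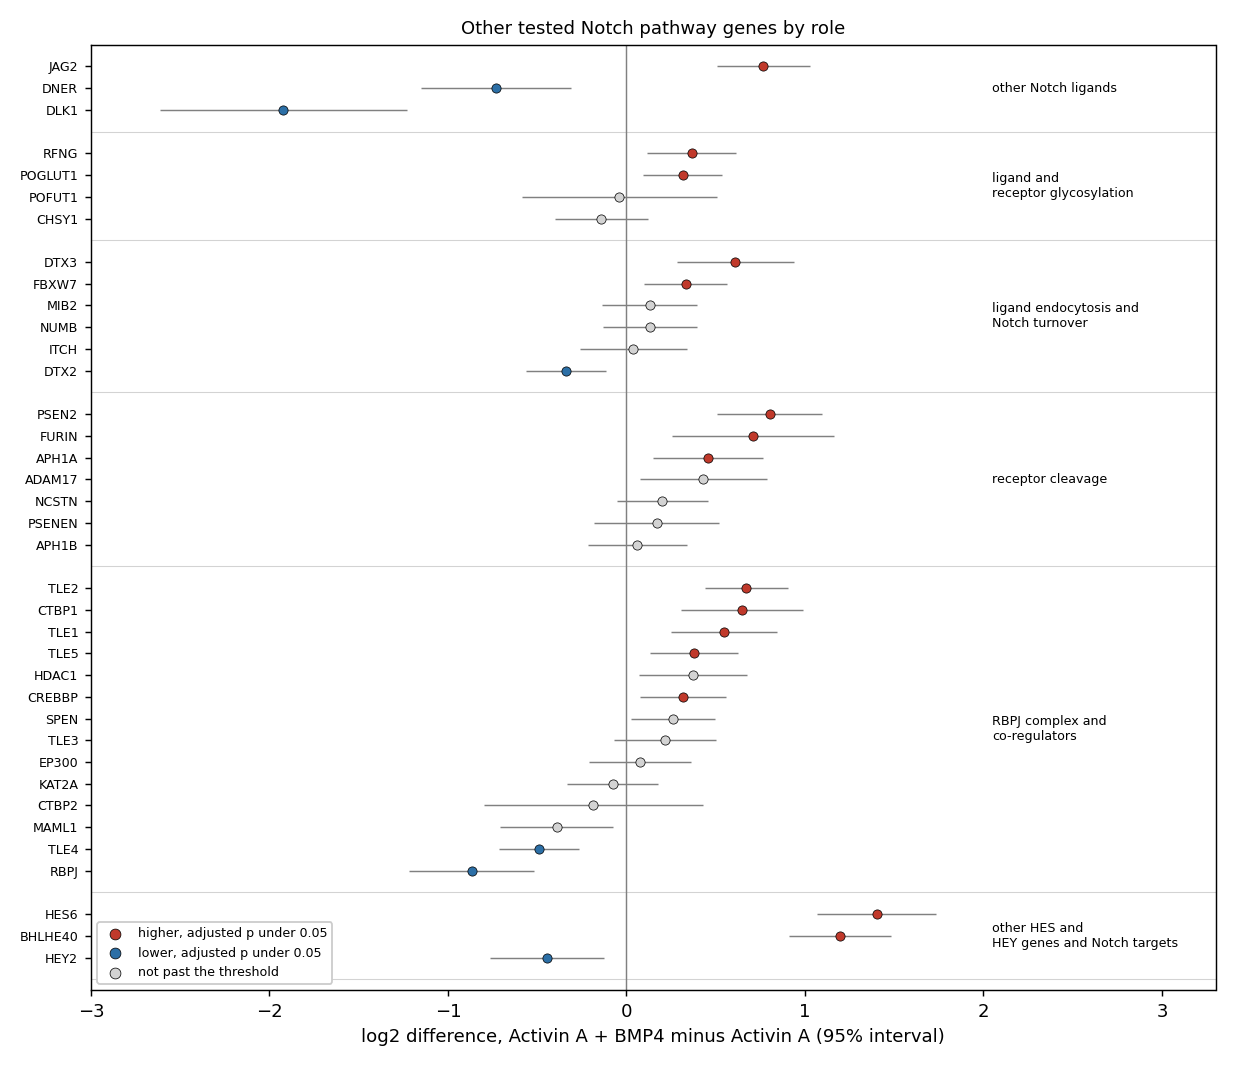
Log2 difference (horizontal axis, Activin A + BMP4 minus Activin A) with its 95% interval for the 37 tested genes of the other Notch pathway lists, grouped by role from ligands to targets. Red points were higher and blue points lower at an adjusted p under 0.05, 15 and 6 genes, and grey points did not pass; HES6 and BHLHE40 lie farthest right and DLK1 farthest left.

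Marker lists of other cell types that use Notch genes were read beside these results. DLL1, DLL3 and LFNG are also markers of paraxial mesoderm and its segmentation clock. They were the only 3 of 13 listed genes tested there, and TBX6, RIPPLY2, HES7, MEOX1 and UNCX were not above background on any array. Endothelial markers, whose cells use DLL4 and HEY genes, had 4 of 9 tested, 2 higher and 1 lower, with a summed level of 948 to 1038 with BMP4 and 528 to 672 without it. PECAM1, CDH5, TIE1 and ERG were not above background on any array. Neural ectoderm markers had 4 of 9 tested, 2 higher and 2 lower, with a summed level of 3037 to 3238 with BMP4 and 2410 to 2472 without it. OTX2, at a mean of 10.91 with BMP4 and 9.99 without it, weighs heavily in this linear sum, and NCAM1 was higher too. NES fell by 0.54 on the log2 scale, and SOX3, not above background with BMP4, was at least 2.66-fold lower (1.84 under normexp). SOX1 and PAX6 were not above background on any array. Of all tested genes, 17.6% were called higher and 18.1% lower. The part of such cells in the Notch gene differences was not tested.

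The tested genes whose levels followed HEY1 most closely over the 6 arrays were CHCHD2, EBF2, GGCT, SEC22B and FOXO1, with Pearson correlations of 0.996 to 0.999. The arrays fall into 2 treatments, so such a correlation largely restates the difference between them, and 921 tested genes reached 0.9. The correlations also use HEY1 values that were not above background on any array with BMP4. The order of these genes is therefore not determined, and the list is a description. FOXO1, a forkhead transcription factor, was lower by a log2 difference of -0.51, and EBF2, another transcription factor gene, was like HEY1 not above background on any array with BMP4.

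**Figure D4:**
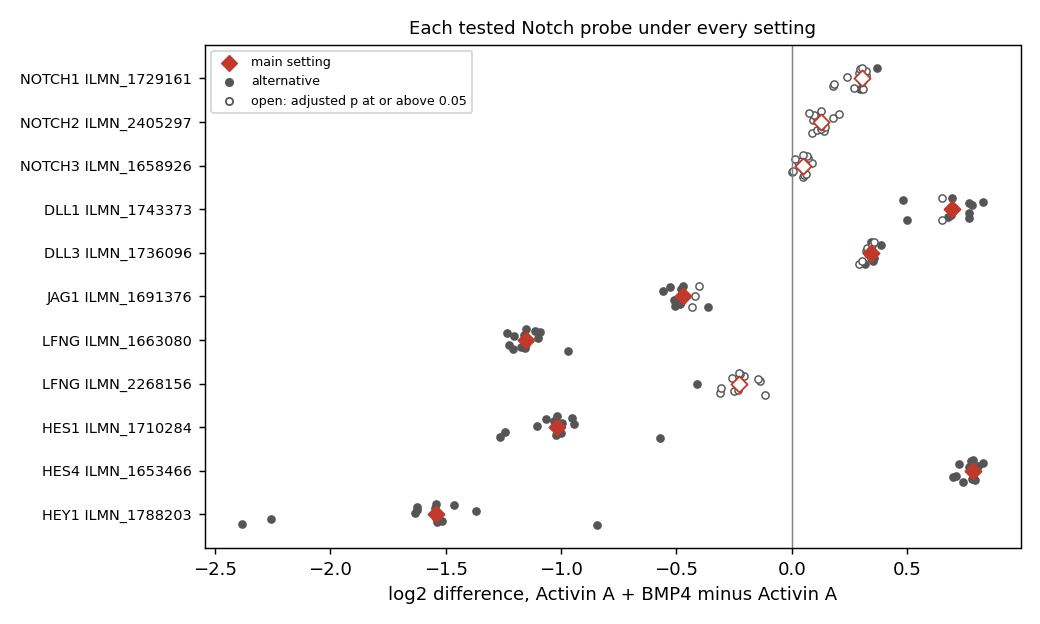
Log2 difference (horizontal axis, Activin A + BMP4 minus Activin A) of the 11 tested Notch probes under the reported setting (diamonds) and each alternative processing or left-out array (circles); open symbols have an adjusted p of 0.05 or more. HEY1, HES1, HES4 and LFNG ILMN_1663080 kept filled symbols throughout, while DLL3 had an open symbol under 8 alternatives. The values of HEY1, between -2.38 and -0.84, and of HES1 are fitted and not measured differences.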

How the data were processed

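RNA of 6 cultures was measured on Illumina bead arrays. The deposited signals are intensity values that the file headers call non-normalized. Between 22.2% and 24.6% of them were below 0 on an array, so background had been subtracted. The deposited detection column is a score, named a detection p-value per the file headers, and it was read as 1 minus that p since it rose with the signal (Spearman correlation at least 0.980). The authors' processed values are log2 values; over 6507 bright probes they equalled log2 signal plus a probe and an array constant to within 1.20e-06. Their array medians were -0.15 to 0.15, and the baseline of each probe is unknown.

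Signals were corrected and quantile-normalized with neqc (offset 16) in limma 3.58.1 under R 4.3.3. A probe was tested if above background (detection p under 0.01) on at least 3 of 6 arrays. Treatment was the only term in lmFit and eBayes. Gene names came from the platform annotation, updated through gene IDs for 21813 of 21834 named probes, and a gene is represented by its tested probe with the highest mean. The fit was tested on simulated data. Members, lists and the rule for named genes (all member probes, up to 5 called genes a list, 4 fibroblast markers and 5 genes most like HEY1) were chosen with earlier results of these data known; other genes named were chosen after their values were seen. Same-numbered arrays of the treatments were not paired in the fit, and their deviations from the group means correlated at 0.03, -0.03 and -0.05. Such correlations cannot decide whether the cultures were handled in pairs. The number of arrays limits the precision.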

Additional observations from a re-analysis of the deposited data

How the results depend on the processing

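Alternatives were other background corrections, normalizations, filters and blocks and each array left out, plus a detection p under 0.05, chosen after seeing the data. HEY1, HES1, HES4 and LFNG ILMN_1663080 kept direction and call under every alternative in which they were tested; HEY1 and HES1 are not among probes above background on all 6 arrays. Of 173 comparisons of a Notch probe with an alternative, 155 kept both, 13 no longer passed the threshold, 4 newly passed it and 1 changed sign. NOTCH1 passed with normexp (0.29) and among probes detected on all 6 arrays (0.31). NOTCH3 turned to -1.6e-05 under median scaling. DLL3 did not pass under median scaling (0.29), with the authors' values (0.30) or with no filter (0.35). Leaving out 1 array gave log2 differences of 0.24 to 0.37 for NOTCH1, 0.48 to 0.83 for DLL1, 0.32 to 0.39 for DLL3, -0.56 to -0.40 for JAG1 and -0.41 to -0.14 for LFNG ILMN_2268156. It gave 1 to 3 Notch probes higher, 3 to 4 lower, 8 to 13 other pathway genes higher and 3 to 5 lower. With detection on all 6 arrays 2 Notch probes were lower, since HEY1 and HES1 were not tested. Other pathway genes higher numbered 9 with median scaling and also 9 with the values the authors processed. For all these changes the cause was not tested. The fitted normexp values of HEY1 and HES1 were smaller, -0.84 and -0.57. With no further background correction that of HEY1 was -2.38 (-2.26 with the authors' values). These fitted values rest on BMP4 arrays not above background at a detection p under 0.01, and are not measured differences. The named genes of the other lists kept their direction in all 366 comparisons, and 58 no longer passed. Over all probes the median difference ranged between -0.03 and 0.01.

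With the replicate block, the fitted value of HEY1, likewise not a measured difference, was -1.54 (limma adjusted p = 3.59e-04). There 3 Notch probes were higher and 4 lower, and no call of a Notch probe changed. Other pathway genes numbered 11 higher and 5 lower. The values showed no pairing by number, and for 2 of 6 arrays the best correlation was with the same number. A random chip block (consensus correlation 0.01) changed no call of a Notch probe either. Signal over background limits HEY1 and HES1, which have only bounds with BMP4.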
